A study of Mus musculus with 14 samples.

Results

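The genes described here are 10 core genes of the circadian clock, chosen by name from the 52459 genes of the count table: Arntl, Clock, Per1, Per2, Per3, Cry1, Cry2, Nr1d1, Nr1d2 and Dbp. All 10 are in the table and all 10 passed the filter on low counts, which left 16350 genes. Their RNA was sequenced in cells sorted from dispersed pancreatic islets. Of the 14 libraries, 7 come from cells positive for beta-galactosidase (called positive) and 7 from cells negative for it (called negative), parted by flow cytometry on acidic beta-galactosidase activity, a lysosomal enzyme activity used as a marker of senescence. All cells of both groups came from male C57BL/6J mice aged 7 months, with no treatment or transgene named in the labels, and the libraries are numbered 1 to 7 in each group. The labels do not say whether animals were pooled, what a number stands for or at which hour islets were taken.

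The circadian clock is a loop of transcription and repression that runs in nearly every cell, including islet cells, where it is known to take part in the daily timing of insulin secretion. The proteins of Arntl (also called Bmal1) and Clock bind E-box sequences as a pair and switch on the Per and Cry genes, whose proteins then repress that pair. Nr1d1 and Nr1d2 encode the nuclear receptors REV-ERB alpha and beta, which repress Arntl through RORE sequences, and Dbp encodes a factor that activates genes through D-box sequences. In a clock that runs in step across cells, most of these transcripts rise and fall over the day, with Arntl high when Nr1d1 and Dbp are low.

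These elements can be seen in the RefSeq promoter windows of the clock genes on GRCm38.p6, which run from 250 bases before to 50 bases after a start. Windows were found for 9 of the 10 genes, 13 windows in all. The search, on both strands, was for the E-box CACGTG, the E-prime box CACGTT, the D-box TTANGTAA and the RORE core TAGGTCA, where AACGTG is the E-prime box read from the other strand. The E-box and the E-prime box share their leading letters, and a run was counted as the motif whose last letter it had. An E-box stood in a window of 2 of the 9 genes, against 7.15% of 32851 windows of all genes, and an E-prime box in a window of 3 genes, against 4.68%. D-boxes stood in a window of 1 gene (2.32% of all windows) and a RORE core in a window of 1 gene (2.61%). These counts are per gene, over any of its windows, while the shares are per window. The counts are therefore not on the scale of the shares, and no excess is read from them. A match is a run of letters, not a measured binding site. The stretches below are shown because they hold the matches of the genes whose levels are described next. They run 5′ to 3′ on the strand of the gene, with the matches in capitals. The first 5 lie before the start, and that of Arntl lies just after it.
Per1 (chr11:69098749-69098828, plus strand): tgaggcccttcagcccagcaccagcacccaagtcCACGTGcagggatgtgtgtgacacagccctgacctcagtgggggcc
Per3 (chr4:151044806-151044885, minus strand): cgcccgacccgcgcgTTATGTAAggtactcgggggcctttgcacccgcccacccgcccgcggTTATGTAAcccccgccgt
Cry1 (chr10:85185085-85185164, minus strand): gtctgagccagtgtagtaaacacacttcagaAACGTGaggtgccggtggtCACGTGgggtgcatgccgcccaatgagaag
Cry2 (chr2:92434190-92434269, minus strand): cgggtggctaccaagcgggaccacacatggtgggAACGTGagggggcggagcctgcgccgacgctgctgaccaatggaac
Nr1d1 (chr11:98775378-98775457, minus strand): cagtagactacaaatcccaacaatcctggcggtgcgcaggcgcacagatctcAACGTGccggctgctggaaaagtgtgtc
Arntl (chr7:113207529-113207558, plus strand): gaaggcagaaagTAGGTCAgggacggaggt
Cry1 holds an E-box and an E-prime box close together, Per3 holds a pair of identical D-boxes, and Arntl holds the RORE core. Per1 holds an E-box, and Cry2 and Nr1d1 hold an E-prime box each.

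Library totals ranged from 15585779 to 24577025 counts in positive cells and from 11060144 to 23045934 in negative cells, and each clock gene had between 223 and 7434 counts in every library. The 10 beta cell markers were detected in all libraries at a summed level of 99200 to 129000 CPM (counts scaled to a common library total) in positive and 103000 to 154000 CPM in negative cells. The libraries also held RNA of other cells, in unequal amounts. The summed level of 14 macrophage markers was 85.7 to 775 CPM in positive cells, with none at 0, and 17.8 to 25.3 CPM in negative cells, with up to 7 at 0 in a library. That of 13 endothelial markers was 402 to 1350 CPM in positive and 4.58 to 71.2 CPM in negative cells, with none at 0 in positive and up to 3 at 0 in a negative library. Of these markers, 14 of 14 and 13 of 13 rose in positive cells, with median log2 fold changes of 6.13 and 4.87, and both sums were highest in numbers 6 and 7 of each group. Of 4 delta cell markers the sum was 308 to 2190 CPM in positive and 81.7 to 434 CPM in negative cells, and 2 of the 3 tested rose. Of 9 acinar markers tested 4 fell, with sums of 26 to 781 CPM in positive and 120 to 1230 CPM in negative cells. Sums of alpha cell markers were 3450 to 27400 CPM in positive and 10400 to 28000 CPM in negative cells. The sum of 11 pericyte and fibroblast markers was 1450 CPM in negative 3, against 51.8 to 250 CPM in positive and 15.8 to 72.1 CPM in the other negative libraries. In such bulk samples, fewer cells of a type and less RNA per cell cannot be told apart. The part of these other cells in the values of the clock genes was not tested.

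Between the groups, no clock gene was called with group as the only term, and 3 were called with the replicate number as a block. Positive cells had point estimates within 0.33 on the log2 scale of negative cells for all 10 genes, 4 higher and 6 lower, and the ranges of the groups overlapped for every gene. None of the 10 passed edgeR's quasi-likelihood test with group as the only term (adjusted p below 0.05), where 8.03% of all tested genes did (6.40% higher, 1.63% lower) and 4.88% of the 7575 genes with at least the expression of the least abundant clock gene, and DESeq2 also called none. At an unadjusted p below 0.05, edgeR counted 1 of the 10, Arntl, against 3457 of all 16350 genes. In the fit blocked by number, 3 clock genes fell in positive cells, Arntl, Per2 and Cry2. In that fit 19.6% of all genes tested were called, 11.8% higher and 7.77% lower, and 9.32% of the genes at least as expressed were lower. Beta cell markers moved the same way, with negative fold changes for all 10 (median −0.25 on the log2 scale) and 5 of 10 lower with the block, among them Nkx6-1 (−0.39, adjusted p = 0.00226) and Mafa (−0.77, adjusted p = 0.0158). Their part in the values of the clock genes was not tested. The median log2 fold change of the 10 was −0.07, against 0.00 over all genes tested. Without regard to sign, the median was 0.149 for the 10 and 0.122 over all genes tested.

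**Figure D1:**
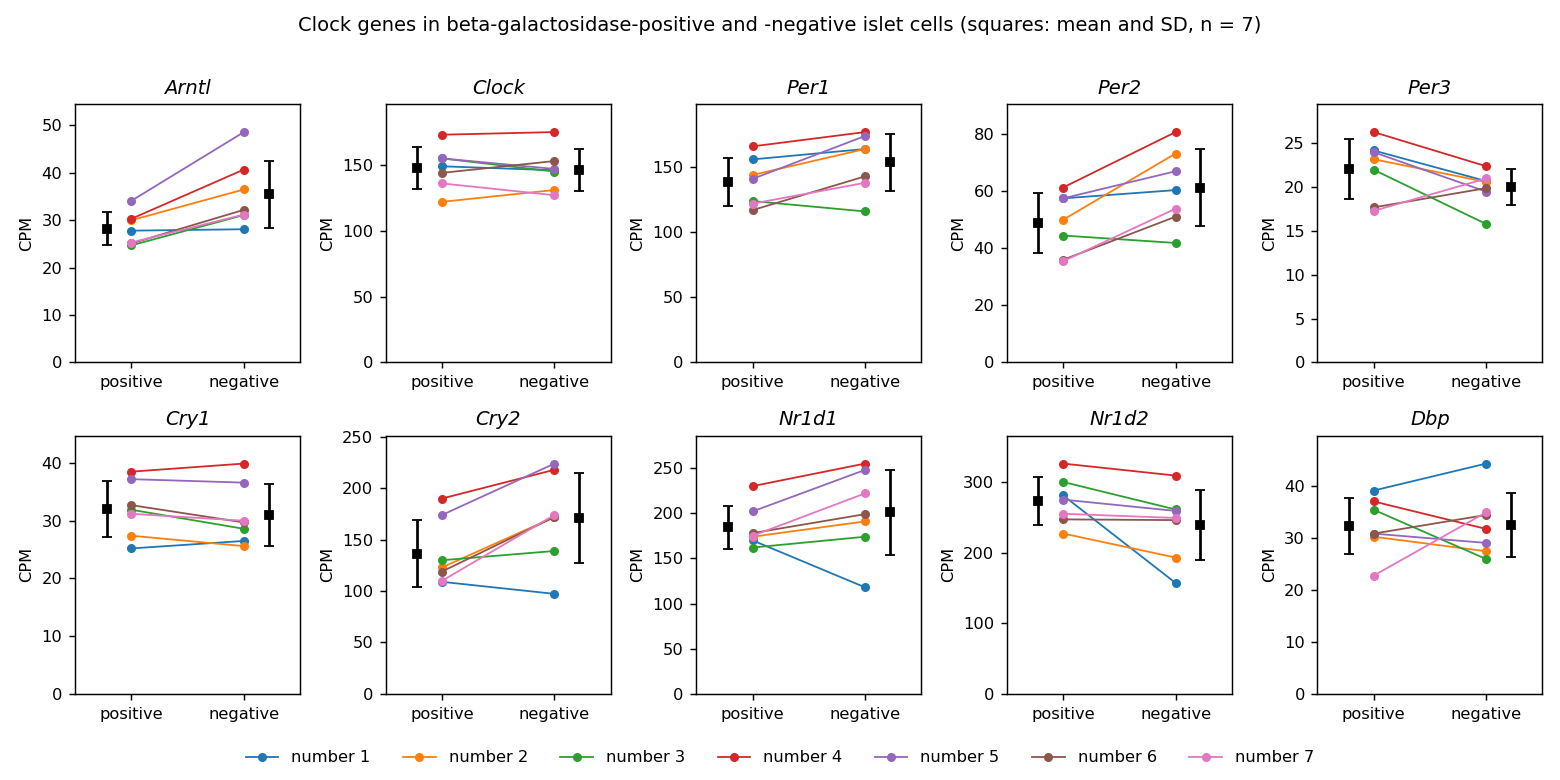
Level of each clock gene in CPM (y axes from 0) in the positive (left) and negative (right) library of each replicate number, joined by a line, with the mean and SD of 7 libraries as black squares. Lines of Arntl run upward to negative cells in all 7 pairs, and the groups overlap for every gene, with number 4 high in most panels.

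Expressed per kilobase of merged exons of the GENCODE M21 annotation, Nr1d1 was the most abundant clock transcript, at 59.9 ± 7.72 CPM per kb in positive and 65.4 ± 15.3 in negative cells (SD, n = 7 each). Nr1d2 came next with 50.4 ± 6.16 CPM per kb in positive and 44.2 ± 9.17 in negative cells, more than 1 SD of Nr1d1 below its mean in both groups. Per1 (24.6 ± 3.31 CPM per kb in positive, 27.3 ± 3.92 in negative cells) and Cry2 (21.6 ± 5.09 in positive, 27.0 ± 6.93 in negative cells) formed the next level and overlapped each other. Clock, Dbp, Cry1 and Per2 followed at 8.33 to 10.8 CPM per kb in positive and 9.28 to 10.9 in negative cells, with overlapping SDs. Arntl stood lower, at 3.75 ± 0.463 CPM per kb in positive and 4.72 ± 0.942 in negative cells. Per3 was the lowest, at 2.30 ± 0.355 CPM per kb in positive and 2.08 ± 0.214 in negative cells. The order was the same in both groups except that Clock and Dbp shared a place in positive cells and Per2 and Cry1 changed places.

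Arntl (ENSMUSG00000055116, chromosome 7, 113207465 to 113314126, plus strand, GRCm38) encodes BMAL1, the partner of CLOCK in the activating pair. It ranged from 24.7 CPM over a median of 27.8 to 34.1 CPM in positive cells, and from 28.1 over 32.2 to 48.6 CPM in negative cells. The highest library of both groups was number 5, and the positive library was the lower in all 7 pairs, a pattern shown by 6.93% of all genes tested. The difference within pairs ran from −0.51 (number 5) to −0.01 (number 1) on the log2 scale. The log2 fold change was −0.33 ± 0.11 (SE, adjusted p = 0.097) in edgeR's quasi-likelihood test and −0.32 ± 0.06 (adjusted p = 0.00293) with the replicate number as a block. With the block, Arntl fell when any number was left out (log2 fold change −0.37 to −0.29, adjusted p 0.000527 to 0.012), and by 0.31 without numbers 6 and 7 together (adjusted p = 0.0288). Without the block its call depended on single libraries, with an adjusted p of 0.0379 without negative 1 and 0.04 without positive 5.

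Clock (chromosome 5, 76209868 to 76304792, minus strand) encodes the other protein of the activating pair, a histone acetyltransferase as well as a DNA-binding factor. It ranged from 122 over 149 to 173 CPM in positive and from 127 over 146 to 175 CPM in negative cells. The groups lay on top of each other, with the positive library higher in 4 of 7 pairs. The log2 fold change was 0.01 ± 0.08 (SE), and its 95% interval with the block was −0.07 to 0.10. Number 4 was the highest of both groups.

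The Period genes encode repressors that act in complexes with the Cryptochromes. Per1 (chromosome 11, 69095217 to 69109960, plus strand) ranged from 117 over 141 to 166 CPM in positive and from 116 over 164 to 177 CPM in negative cells. It was lower in the positive library of 6 of 7 pairs, the exception being number 3. Its log2 fold change was −0.15 ± 0.10 (SE, adjusted p = 0.43; 0.0628 with the block). With the block and without number 3 Per1 was called, at −0.20 (adjusted p = 0.00702). Per2 (chromosome 1, 91415982 to 91459324, minus strand) ranged from 35.4 over 49.9 to 61.2 CPM in positive and from 41.8 over 60.3 to 80.6 CPM in negative cells. The positive library was again the lower in all pairs but number 3. Its log2 fold change was −0.32 ± 0.16 (SE, adjusted p = 0.253) without and −0.32 ± 0.08 (adjusted p = 0.0212) with the block. The blocked call of Per2 was lost without number 2 (adjusted p = 0.0573), 4 (0.0505), 6 (0.0644) or 7 (0.0557), and its log2 fold change was −0.23 without numbers 6 and 7 together (adjusted p = 0.144). Positive 6 and 7 had the lowest Per2 levels of all libraries, 35.9 and 35.4 CPM, and also the highest macrophage and endothelial marker sums.

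Per3 (chromosome 4, 151003652 to 151044665, minus strand), the Period gene that the mouse clock can run without, went the other way from Per1 and Per2 in most pairs. It ranged from 17.3 over 23.2 to 26.3 CPM in positive and from 15.8 over 20.6 to 22.4 CPM in negative cells. The positive library was the higher in numbers 1 to 5, by 0.17 to 0.48 on the log2 scale, and the lower in numbers 6 and 7. Over all 7 pairs Per3 was not called (log2 fold change 0.15 ± 0.10, SE, adjusted p = 0.432; 0.283 with the block). Without numbers 6 and 7, a setting listed after the values were seen for the blocked fit, it had a log2 fold change of 0.28 and was called with the block (adjusted p = 0.0245).

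The Cryptochromes encode the other repressors of the loop. Cry1 (chromosome 10, 85131700 to 85185064, minus strand) ranged from 25.2 over 31.9 to 38.5 CPM in positive and from 25.6 over 29.7 to 39.9 CPM in negative cells. Its libraries matched closely within pairs, with differences of −0.07 to 0.16 on the log2 scale and a log2 fold change of 0.05 ± 0.05 with the block (SE, adjusted p = 0.484, 95% interval −0.05 to 0.15). Cry2 (chromosome 2, 92403646 to 92434043, minus strand) ranged from 109 over 123 to 190 CPM in positive and from 97.3 over 172 to 224 CPM in negative cells. The positive library was the lower in 6 of 7 pairs, the exception being number 1, where both libraries were low. Its log2 fold change was −0.33 ± 0.18 (SE, adjusted p = 0.313) without and −0.31 ± 0.09 (adjusted p = 0.0391) with the block. The blocked call of Cry2 was lost without number 2 (adjusted p = 0.0922), 4 (0.0554), 5 (0.091), 6 (0.106) or 7 (0.0853), and its log2 fold change was −0.20 without numbers 6 and 7 together (adjusted p = 0.202).

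Nr1d1 (chromosome 11, 98767932 to 98775333, minus strand) ranged from 162 over 175 to 230 CPM in positive and from 118 over 199 to 255 CPM in negative cells. In every pair but number 1 the positive library was the lower, and in number 1 it was higher by 0.52 on the log2 scale. With all pairs the log2 fold change with the block was −0.10 ± 0.09 (SE, adjusted p = 0.498), and without number 1 it was −0.20 (adjusted p = 0.0106). Nr1d2 (chromosome 14, 18204054 to 18239127, minus strand) ranged from 227 over 275 to 326 CPM in positive and from 157 over 249 to 309 CPM in negative cells. The positive library was the higher in all 7 pairs, as for 11.1% of all genes tested, by 0.01 (number 6) to 0.84 (number 1). It was not called (log2 fold change 0.19 ± 0.12, SE, adjusted p = 0.413; 0.21 ± 0.09 with the block, 0.14 as adjusted p), and without number 1 the blocked log2 fold change was 0.10 (adjusted p = 0.124). Negative 1, with 118 CPM of Nr1d1 and 157 CPM of Nr1d2, was the lowest library of both genes.

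Dbp (chromosome 7, 45705088 to 45710203, plus strand), a direct output of the E-box loop, showed no common direction. It ranged from 22.8 over 30.9 to 39.2 CPM in positive and from 26.0 over 31.8 to 44.4 CPM in negative cells. Differences within pairs ran from −0.61 (number 7) to 0.44 (number 3), higher in 4 pairs and lower in 3. The log2 fold change was −0.01 ± 0.13 (SE, adjusted p = 0.97), with a 95% interval of −0.28 to 0.26. Of its exon bases 18% lie opposite those of Sphk2 (log2 fold change −0.06, adjusted p = 0.638), and 8.55% of those of Nr1d1 lie opposite Thra (−0.11, adjusted p = 0.483). The strand setting of the counting was not given in the sources used here, so reads of these overlaps cannot be told apart.

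**Figure D2:**
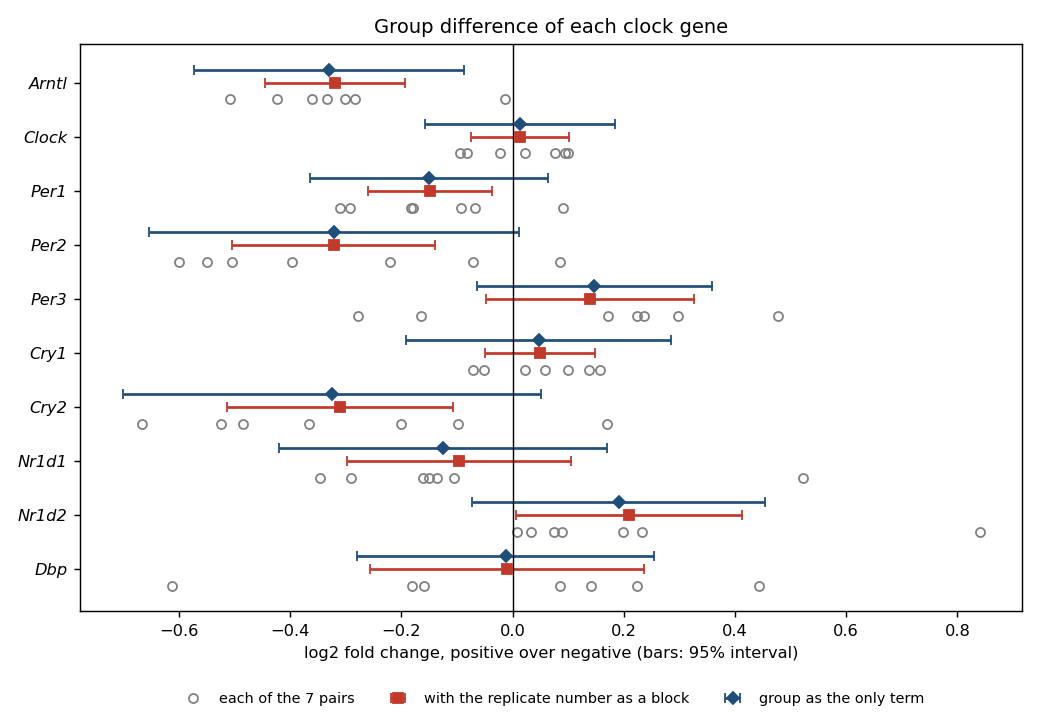
Log2 fold change of each clock gene, positive over negative, from the fit with group as the only term (blue diamonds) and with the replicate number as a block (red squares), each with its 95% interval, and the difference within each of the 7 pairs (grey circles). Before adjustment over genes, the blocked intervals of Arntl, Per1, Per2 and Cry2 lie below 0 and that of Nr1d2 above it, and the pairs of Dbp lie on both sides.

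Variation between numbers was called for some clock genes and not for others. The test of the 6 replicate-number terms, with group in the fit, called 6 of the 10 genes, Cry1, Arntl, Per1, Clock, Cry2 and Per2, where it called 21.0% of all genes tested and 30.2% of the 7575 genes at least as expressed. It was strongest for Cry1 (edgeR F = 13.9, adjusted p = 0.00387), followed by Arntl (F = 8.42, adjusted p = 0.0142), Per1 (8.19 as F, adjusted p = 0.0153) and Clock (7.93 as F, adjusted p = 0.0166). Nr1d1 (adjusted p = 0.0754), Nr1d2 (0.145), Dbp (0.316) and Per3 (0.344) were not called. DESeq2's likelihood-ratio test called 8 of the 10, with Nr1d1 (adjusted p = 0.000536) and Nr1d2 (0.0079) among them. Of all genes it called 3843, from 31875 with a count before DESeq2's own filtering. Without number 1, Nr1d1 (adjusted p = 0.00764) and Nr1d2 (0.00751) were called too. Without number 4 the calls were 2, Cry1 and Arntl, with an adjusted p of 0.143 for Clock, 0.0507 for Per1, 0.0779 for Per2 and 0.0766 for Cry2. The call of Clock was lost without number 2 (adjusted p = 0.0536), those of Arntl (0.0999) and Cry2 (0.0613) without number 5, and that of Per2 without numbers 6 and 7 together (0.0508).

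The size of this variation can be set beside the group difference. Replicate number took a median share of 67.7% of the sum of squares of log2 CPM of the 10 clock genes, group 12.7% and the remainder 12.6%, against 59.8%, 9.42% and 22.1% over all genes tested and 66.3%, 8.63% and 18.4% over the 7575 genes at least as expressed. The median share of replicate number in the clock genes was thus close to that of the genes at least as expressed, a set with no upper limit of expression. Replicate number holds 6 of the 13 degrees of freedom, so a large share alone is no sign of an effect. Cry1 (94.8%) and Clock (92.9%) had the highest shares, above those of 99.3% and 98.3% of all genes tested, whereas Per3 (48.6%), Dbp (55.9%), Arntl (56.4%) and Nr1d2 (57.9%) were below the median of all genes. Group had its highest share in Arntl (36.2%) and Per2 (22.3%), and its lowest in Dbp (0.03%) and Clock (0.22%). Shares do not give the size of the variation. The total SD of log2 CPM was 0.149 for Clock, the smallest of the 10, and 0.219 for Cry1. Its median was 0.225 over all genes tested and 0.155 over the genes at least as expressed.

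**Figure D3:**
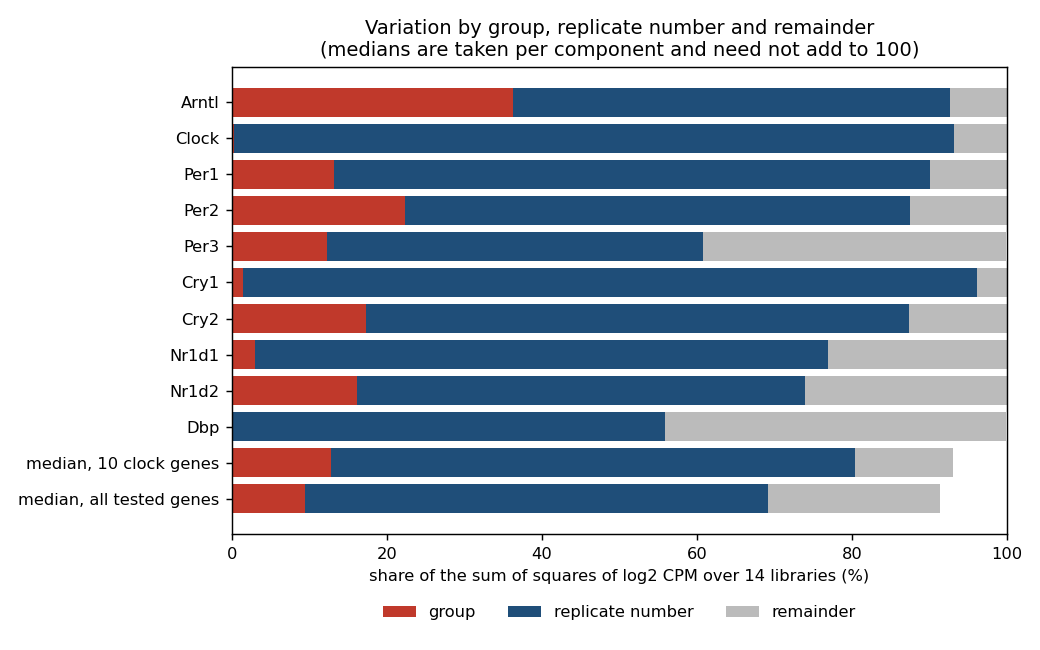
Share (%) of the sum of squares of log2 CPM over 14 libraries that falls to group, replicate number and remainder, for each clock gene and as medians over the 10 clock genes and over all 16350 genes tested. Cry1 and Clock have the largest shares for replicate number (94.8% and 92.9%), and Arntl has the largest share for group (36.2%). Shares do not show the size of the variation, which was smallest for Clock.

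Numbers 4 and 5 carried the most clock RNA. Of the 10 genes, 8 had their highest mean of both libraries in number 4, Arntl had it in number 5 and Dbp in number 1. The share of all genes with their highest mean in number 4 was not computed. A high number 4 was not limited to these genes. The summed level of 12 clock cofactors was also highest there, at 1520 CPM in positive 4 and 1570 CPM in negative 4. That of 17 immediate early genes was instead highest in number 1 of both groups. The span from the lowest to the highest number was 1.97-fold for Cry2, 1.71-fold for Nr1d1 and 1.64-fold for Per2, and 1.3-fold for Per3. Number 1 combined low Cry2, Nr1d1, Cry1 and Nr1d2 (0.53, 0.42, 0.27 and 0.26 below their means over numbers on the log2 scale) with high Dbp (0.38 above its mean). For Nr1d2 the low value was that of negative 1 (157 CPM), while positive 1 stood at 281 CPM, above the positive mean of 273 CPM. For Nr1d1 too negative 1 was low (118 CPM), while positive 1 had 170 CPM, near the positive median of 175 CPM. Number 2 was about as low in Nr1d2 and Cry1, 0.27 and 0.23 below their means. Numbers 3, 6 and 7 were low in all 3 Period genes, with Per2 below its mean by 0.31, 0.32 and 0.29. In the same libraries the summed level of 17 immediate early genes was 6640 CPM in positive 1 and 8930 CPM in negative 1, and between 3190 and 3980 CPM in numbers 3, 6 and 7 of both groups. The part of the immediate early genes in the levels of the clock genes was not tested.

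**Figure D4:**
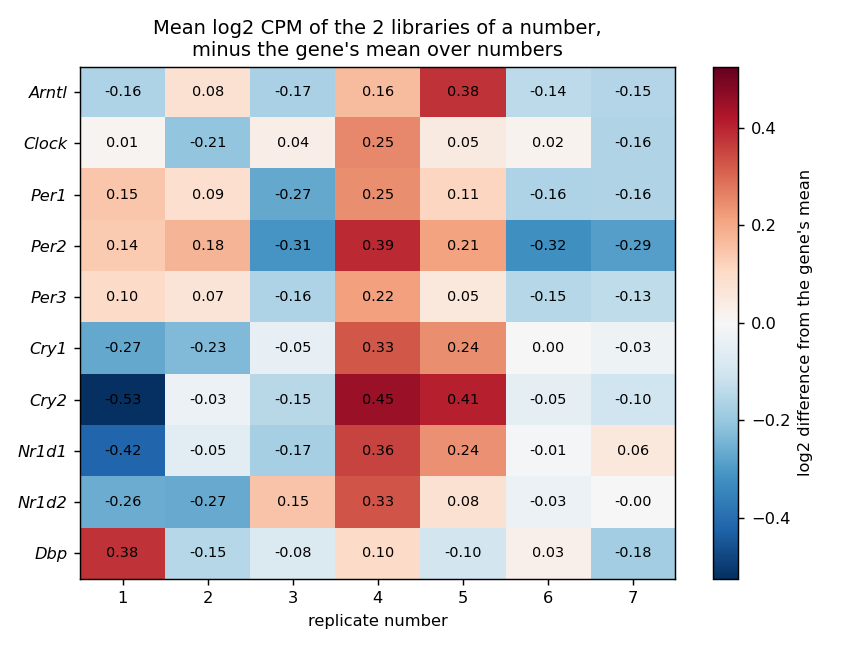
Mean log2 CPM of the positive and negative library of each replicate number (columns) minus the mean of the gene over numbers (rows are clock genes, colour and printed values are log2 differences). Number 4 is above the mean for all 10 genes, and the 3 Period genes are below it in numbers 3, 6 and 7. The share of all genes above their mean in number 4 was not computed.

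Pearson r of the positive with the negative libraries over the numbers was above 0 for all 10 genes, though only 0.12 for Per3 and Dbp. The median r was 0.70, against 0.49 over all genes tested, whose quartiles were 0.16 and 0.73. Single clock genes lay above 22.6% (Per3) to 96.2% (Cry1) of all genes tested. Those genes include less expressed ones, and a median over genes of like expression was not computed. For Cry1 r was 0.93 (exact permutation p = 0.00635, adjusted over the 10 genes 0.0635) and Spearman's rho 0.86 (exact p = 0.0238), with r at 0.85 without numbers 4 and 5. For Clock r was 0.86 (exact permutation p = 0.0224, adjusted 0.0747) and rho 0.71 (exact p = 0.0881), with r at 0.81 without numbers 4 and 7. The relation of Arntl (r = 0.85, exact permutation p = 0.0153, adjusted 0.0747; rho = 0.75, exact p = 0.0663) rested on numbers 4 and 5, since r was 0.40 without them. Dbp (r = 0.12, exact permutation p = 0.798; rho = 0.18, exact p = 0.713) and Per3 (r = 0.12, exact permutation p = 0.80; rho = 0.29, exact p = 0.556) gave the lowest values. Their r fell below 0 without 2 numbers, to −0.37 for Dbp (without 1 and 3) and −0.17 for Per3 (without 3 and 4). None of the 10 passed an adjusted p of 0.05 in this test, which 7 pairs limit, and 4 were below an unadjusted 0.05. Without number 1, 4 of the 10 passed the adjusted threshold.

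Over the 7 number means, 45 relations between clock genes were computed, of which 39 had a positive r. Among the 3 Period genes, 1 relation of 3 was called. For Per1 and Per3 r was 0.98 (exact permutation p = 0.000595, adjusted over the 45 relations 0.0268) and rho 0.96 (exact p = 0.00278, adjusted 0.101), with r at 0.99 without numbers 3 and 6. Within groups it was 0.89 in positive and 0.78 in negative libraries. Per3 itself was not called for replicate number (edgeR F-test, adjusted p = 0.344), and its positive libraries hardly followed the negative ones (r = 0.12). Both genes of a relation come from the same libraries, so variation shared by a library enters its r. For Per1 and Per2 r was 0.97 (exact permutation p = 0.00536, adjusted 0.067) and rho 0.86 (exact p = 0.0238), and for Per2 and Per3 r was 0.98 (exact permutation p = 0.00595, adjusted 0.067) and rho 0.82 (exact p = 0.0341). Cry2 and Nr1d1 gave an r of 0.96 (exact permutation p = 0.00218, adjusted 0.0491) and a rho of 0.86 (exact p = 0.0238, adjusted 0.179), with r at 0.87 without numbers 1 and 4. These 2 relations were the only ones with an adjusted p of r below 0.05 among the 45, and no rho was. Arntl and Nr1d1, the repressed gene and its repressor, had a positive r of 0.71 (exact permutation p = 0.0766, adjusted 0.246) and a rho of 0.79 (exact p = 0.048), with r at 0.26 without numbers 4 and 5. For Arntl and Dbp r was −0.23 (exact permutation p = 0.616, adjusted 0.693) and rho −0.14 (exact p = 0.783), with r at −0.38 without the same numbers. Within groups, r of Arntl and Dbp was 0.189 in positive and −0.505 in negative libraries, so its sign differed between the groups.

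A further 40 genes of the clock and its outputs, all of which passed the filter, were examined beside the 10. Of these 40, 3 rose and 37 were not called between the groups with group as the only term, and 6 rose and 3 fell with the block. These counts lie near the shares of all genes tested, 8.03% with group as the only term and 19.6% with the block. Bhlhe40, a repressor that competes for E-boxes, had 86.1 ± 11.6 CPM in positive and 67.1 ± 10.6 CPM in negative cells (SD, n = 7 each). It rose by 0.36 ± 0.11 on the log2 scale (SE, adjusted p = 0.0486), in all 7 pairs. Timeless, which in mammals is known best for its part at the replication fork, rose from a low level (3.41 ± 1.55 CPM in positive, 0.892 ± 0.439 CPM in negative cells; log2 fold change 1.88 ± 0.34, adjusted p = 0.00186). Tspan4, a transcript that cycles in many mouse organs, also rose (1.05 ± 0.29, adjusted p = 0.0321), in 6 of 7 pairs. Endothelial and macrophage marker sums, given above, were higher in the same libraries.

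Among the repressors and nuclear receptors not called with group as the only term, Ciart, which represses the activating pair, rose in all 7 pairs with the block (0.36, adjusted p = 0.00458; 0.34 as adjusted p without it). Rorb, a nuclear receptor of the ROR family, was near 1 CPM and was not called (0.40 ± 0.29, adjusted p = 0.468). Of the relatives of Dbp, Hlf (0.24 ± 0.18, adjusted p = 0.474) and the D-box repressor Nfil3 (−0.23 ± 0.21, adjusted p = 0.594) were not called with or without the block. Arntl2, a paralog of Arntl, was not called either (0.24 ± 0.14, adjusted p = 0.356).

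Of 12 kinases and ubiquitin enzymes that set the stability of the clock proteins, Usp2 and Fbxl21 had the largest fold changes and neither was called with group as the only term. Usp2, a deubiquitinating enzyme under clock control, had 13.1 ± 3.23 CPM in positive and 22.9 ± 7.63 CPM in negative cells (SD, n = 7 each). Its log2 fold change was −0.80 ± 0.24 (SE, adjusted p = 0.0524), and with the block it fell by 0.76 (adjusted p = 0.00108), lower in all 7 pairs. Btrc, a subunit of the ligase that marks the Period proteins, fell with the block (−0.26, adjusted p = 0.00961), and Gsk3b, a kinase of clock proteins, rose with it (0.21, adjusted p = 0.00237). Fbxl21 was not called (−0.37 ± 0.22, adjusted p = 0.363).

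Replicate number was called for 15 of the 40 genes (37.5%), against 21.0% of all genes tested and 30.2% of the genes at least as expressed as the clock genes. The latter share is of an unlike set, since some of the 40, such as Rorb and Timeless, were less expressed than every clock gene. The 15 genes called included Gsk3b (F = 19.5, adjusted p = 0.00173), Ciart (F = 19.2, adjusted p = 0.00178), Sfpq (11.2 as F), Tsc22d3 (10.9 as F), Hlf (10.3 as F), Fbxw11 (9.95 as F) and Usp2 (9.62 as F). Npas2, which can stand in for Clock, was called near the threshold (adjusted p = 0.0431), as were Tef (0.0239), Btrc (0.0418) and Sirt1 (0.0482), and the coactivators Crebbp (0.0115) and Ep300 (0.0155) were called too. Replicate number was also called for 12 of 17 immediate early genes, led by Fosb (F = 41.3, adjusted p = 0.000491), Egr2 (0.00193), Btg2 (0.00228) and Jun (0.00617), and for 7 of 10 glucocorticoid targets, led by Errfi1 (0.00193), Tsc22d3 (0.00758), Klf9 (0.0146) and Per1 (0.0153). Between the groups, Ier3 was the immediate early gene called, higher by 1.53 ± 0.22 on the log2 scale (adjusted p = 0.000345). Sgk1 (3.11 ± 0.27) and Ddit4 (0.46 ± 0.10) were the glucocorticoid targets called, both higher in all 7 pairs.

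Genes with an average log2 CPM of 3 or more numbered 10537, and those most like Dbp over the 14 libraries, after each group's mean was taken off, were Tjp3 (r = 0.91), Sstr3 (0.89) and Plxnb2 (0.88), and those most opposed were Gm13456 (−0.94), Actr3 (−0.94) and Gm12174 (−0.86). The other clock genes were less like Dbp, with Per3 the closest (0.64) and Nr1d1 the most opposed (−0.29). Within groups, r of Dbp with Per3 was 0.74 in positive and 0.51 in negative libraries. With Nr1d1 it was 0.17 in positive and −0.52 in negative libraries, so its sign differed between the groups. For Arntl the closest genes were N4bp2l2 (r = 0.94), Dusp5 (0.93) and Ccnl1 (0.92) and the most opposed Ptrh2 (−0.94), Tmem69 (−0.89) and Tyk2 (−0.89), while Cry2 (0.79) and Nr1d1 (0.73) were the closest clock genes. These are the extremes of a search over all such genes and are given as a description, with libraries of a number not independent of each other.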

How the data were processed

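The authors deposited unnormalised counts of reads for each gene in 14 libraries. GRCm38, Subread and featureCounts are named in the submitters' processing notes, while versions, annotation and strand setting are not given in the sources used here. Per the labels' protocols the RNA was polyadenylated and the kit directional. Genes were filtered with filterByExpr, scaled by TMM and tested with edgeR 4.0.16 in R 4.3.3 (robust quasi-likelihood F-test, two-sided, Benjamini-Hochberg over 16350 genes, threshold 0.05). The fit with group as the only term was the main design, and the replicate number was added as a block or tested through its 6 terms. CPM use TMM-scaled totals, and log2 CPM a prior count of 2. Variance shares are sums of squares of log2 CPM, and correlations use exact permutation of the pairings.

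The numbers in the titles were taken to pair the libraries. Deviations from the group means correlated over genes at 0.203 to 0.541 for the same number over the 7 pairs, and the median for unlike numbers was −0.125 and the highest 0.369. Of the 7 positive libraries, 6 were closest to the negative library of their own number. Whether libraries are separate animals is not in the labels, and p-values therefore reflect only how these libraries vary, which may be technical. The members, lists and tests were chosen with earlier results of these data known. The named genes were, of each list, those called (at most 4 by smallest adjusted p) or, if none, the 2 largest fold changes, and the 3 genes most like and most opposed to Dbp and Arntl. The rule was applied to both the group and the replicate-number test, and marker lists of other cells are given as sums and counts. For the blocked fit no such rule was set, and the genes named for it are a selection of those it called. The fits were tested on simulated counts. Alternatives were RLE scaling, DESeq2 1.42.0 (Wald and likelihood-ratio tests), no filter, a prior count of 0.5, left-out libraries and numbers, and, added after seeing the data, left-out numbers within the blocked fit. The values of 1 further gene of the lists are not reported here.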

Additional observations from a re-analysis of the deposited data

Results flagged for a closer look

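Per3 in negative 3 was 15.8 CPM, farther below the other 6 negative libraries than a test for single outlying values allows at the 95% level. Of 20 sets of 7 libraries examined this way (10 clock genes in 2 groups) it was the 1 value marked, and chance marks about 1 set in 20. The same library had 1450 CPM of pericyte and fibroblast markers, against 72.1 CPM or less in the other negative libraries.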

How the results depend on the processing

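Without the block, 0 clock genes were called under RLE scaling, DESeq2, no filter or without numbers 6 and 7, and 0 to 1 when single libraries were left out. With the replicate number as a block 3 were called, 2 without numbers 6 and 7, and 1 to 4 with single numbers left out. Genes called between the groups numbered 1313 in all, 3200 with the block, 2079 by DESeq2, 581 without numbers 6 and 7, 965 to 1883 without single libraries, and 2832, 2351, 3849, 2472, 2389, 2174 and 2342 with the block and without numbers 1 to 7 in turn. For replicate number, 2 to 8 clock genes and 2120 to 4003 of all genes were called when numbers were left out. The median share of replicate number was 60.2% to 73.1%, 0 to 4 genes passed the test of positive against negative libraries, and 0 to 4 relations between clock genes were called, 4 of them without number 2 and 0 without each of the others, though with 6 numbers the smallest exact p hardly allows a call over 45 relations, so that lost calls say little. Fold changes near 0 changed sign. That of Clock was −0.005 without the filter, −0.027 to 0.045 without single libraries, and −0.0134 and −0.0004 with the block and without number 3 or 7. That of Cry1 was −0.0076 to 0.101 without single libraries. That of Dbp was −0.078 to 0.066 without single libraries, 0.12 without numbers 6 and 7, 0.14 there with the block, and 0.0206, 0.0159 and 0.0894 with the block and without number 1, 6 or 7. The cause was not tested. The blocked fit changed no call of a clock gene other than those of Arntl, Per2 and Cry2.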
